A study of Mus musculus and Rattus norvegicus with 96 samples.

Results

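The DNA damage, p53 target and Gadd45 genes described here are 10 genes taken by symbol from a list that was drawn up with earlier results of these data known: Gadd45a, Gadd45b, Gadd45g, Cdkn1a, Mdm2, Ccng1, Phlda3, Bax, Trp53inp1 and Sesn2. They are 10 of the 24543 genes listed for mouse liver, and all 10 passed the filter on low counts that left 13370 genes for testing. The same 10 symbols (Trp53inp1 as Tp53inp1 in rat) had a row for rat liver, rat lung and the mouse hepatocyte line AML12, where 9 of them had at least 1 count.

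The transcription factor p53 is stabilised when DNA is damaged or a cell is otherwise stressed, and it raises the transcription of genes that halt the cell cycle, repair DNA or start cell death. Mdm2, a ubiquitin ligase, marks p53 for degradation and is itself a p53 target, which closes a negative feedback loop. The Gadd45 proteins are small stress proteins that bind PCNA, the p21 protein, CDK1 and the kinase MAP3K4, and in liver Gadd45b is known as an early gene of hepatocyte growth and of the response to activators of the nuclear receptor CAR, of which phenobarbital is the classical one.

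In Study 1, sequencing of total RNA covered livers from 12 male B6C3F1 mice, 6 whose drinking water held phenobarbital (PB, 600 ppm) over 7 days and 6 on plain water (Con). Every liver was preserved by 4 routes, making 48 libraries, 6 for each route and treatment: frozen (FR), formalin-fixed when fresh (FFPE; 10% neutral buffered formalin, 18 to 24 h), formalin-fixed in the same way after freezing (FR>FFPE), and fixed in 70% ethanol after freezing (FR>OH), all but FR embedded in paraffin. A ligation assay of a gene panel (TempO-Seq, in which a pair of probes is joined on the RNA and counted) was run on 48 more libraries: liver of male F344 rats (FR, FR>FFPE and FFPE, 6 each), lung of male WKY rats (FR, FR>FFPE and tissue kept in formalin for 1 year, 6 each), all from vehicle controls, and AML12 cells given saline or 0.006%, 0.03% or 0.1% formalin for 10 min (3 each). Ethanol served as a fixative without formaldehyde cross-links, and freezing before fixation was meant to tell effects on living tissue from effects on tissue already frozen. Mice were 10 to 11 weeks old per the study's methods. AML12 is a line of hepatocytes from CD-1 mice carrying a TGF-alpha transgene, so its cells share 1 origin. The labels do not say whether the 3 AML12 libraries of a dose were separate cultures or which rat libraries came from 1 animal, so p-values there measure the spread between libraries, which may be technical. RNA of FR mouse tissue was extracted with another chemistry than that of embedded tissue, and in rat purified RNA from FR was compared with lysates of embedded tissue, so preservation and extraction cannot be told apart.

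Totals on genes were 4952797 to 13702672 counts in mouse liver, with FFPE at 4952797 to 6760422 and FR at 11737338 to 13702672, so 1 CPM (counts scaled to a common library total) is about 5 counts in the shallowest library. In the other tables totals were 139475 to 3970187 in rat liver and 444288 to 2325990 in AML12. In rat lung they were 226751 to 2505947, without 1 FR library of 12 counts that was left out. Depth differed between the rat preservations. No directly fixed liver library exceeded 889128 counts (median 404596), while each frozen one had 3040915 or more (median 3502450). In lung no 1 year library exceeded 1634580 counts, while each frozen library that was kept had 2013607 or more. The part of depth in the rat results was not tested. The treatment labels were checked with Cyp2b10, the cytochrome P450 that CAR induces, whose highest value over 24 Con libraries was 2.45 CPM and whose lowest over 24 PB libraries was 1080 CPM. The 6 hepatocyte markers (Alb, Ttr, Apoa1, Apob, Tat, Cps1) summed to 78780 to 112700 CPM in FR Con and to 47470 to 58050 CPM in FFPE Con, and the 5 Kupffer cell markers to 214.9 to 384.6 and 141.3 to 256.4 CPM, while the 4 bile duct markers summed to 7.412 to 15.21 and 9.881 to 24.5 CPM and the 4 lymphocyte markers to 0.1972 to 1.978 CPM over all mouse libraries. The part of these shifts in the results below was not tested. In such bulk samples, fewer cells of a type and less RNA per cell cannot be told apart. In rat lung no lung epithelium marker of the list had a count on the panel, but the hepatocyte markers, 4 of 6 of which had counts, summed to 12.21 to 65.06 CPM in FR lung against 169100 to 230400 in FR rat liver. In embedded lung they summed to 15.67 to 451.5 CPM in FR>FFPE and to 92.95 to 1693 CPM in the 1 year tissue. The part of this rise in the members' values was not tested.

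Promoters of 9 of the 10 genes were found in RefSeq on GRCm38.p6, as 10 windows of 300 bases from 250 before to 50 after a transcription start (Cdkn1a has 2, Trp53inp1 none). The consensus decamer of a p53 half-site, searched on both strands, was in 5 of these 10 windows (Cdkn1a, Mdm2, Ccng1, Bax and Gadd45a) and in 8.36% of all 32851 mouse windows. A pair of decamers with at most 13 bases between them, the form of a full p53 site, was in the upstream Cdkn1a window and in 0.0731% of all windows. Searched on both strands, with no match overlapping another, TATAAA was in 2 member windows (13.6% of all), CCAAT in 6 (37.4%), GGGCGG in 7 (35.7%), and AGGTCA (16.3%) and TGACGTCA (1.79%) in none. A match is a description of the letters and not of binding. The sequences below are shown because the results turn on these genes: Cdkn1a and Mdm2 for the preservations, Ccng1 as a gene with a decamer that differed from them there, and Gadd45b for PB. Each is written 5′ to 3′ along its gene.
Cdkn1a, chr17:29090729-29091028, plus strand, with both decamers in capitals, the first starting 73 and the second 51 bases before the start: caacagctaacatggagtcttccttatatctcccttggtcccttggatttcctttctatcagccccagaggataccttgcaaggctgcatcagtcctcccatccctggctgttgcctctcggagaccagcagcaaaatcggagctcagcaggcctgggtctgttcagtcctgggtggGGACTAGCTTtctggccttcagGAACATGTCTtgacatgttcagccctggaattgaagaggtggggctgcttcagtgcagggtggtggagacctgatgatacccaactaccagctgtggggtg
Mdm2, chr10:117710709-117711008, minus strand, with the decamer in capitals, 186 bases before the start: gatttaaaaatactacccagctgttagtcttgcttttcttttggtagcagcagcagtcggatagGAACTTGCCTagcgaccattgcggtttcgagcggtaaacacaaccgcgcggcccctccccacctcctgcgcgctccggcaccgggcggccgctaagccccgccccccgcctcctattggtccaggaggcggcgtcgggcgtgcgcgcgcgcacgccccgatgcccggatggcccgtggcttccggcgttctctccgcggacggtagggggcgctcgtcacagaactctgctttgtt
Ccng1, chr11:40755237-40755536, minus strand, with the decamer in capitals, 185 bases before the start: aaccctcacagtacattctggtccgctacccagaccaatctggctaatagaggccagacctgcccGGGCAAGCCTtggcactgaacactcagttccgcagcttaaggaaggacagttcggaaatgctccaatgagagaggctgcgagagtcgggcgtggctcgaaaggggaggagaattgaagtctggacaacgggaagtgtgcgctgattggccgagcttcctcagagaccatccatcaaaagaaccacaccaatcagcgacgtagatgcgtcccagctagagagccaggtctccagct
Gadd45b, chr10:80929841-80930140, plus strand, with no decamer, capitals marking GGGCGG on the other strand, CCAAT in 2 places and TATAAA 46 bases before the start: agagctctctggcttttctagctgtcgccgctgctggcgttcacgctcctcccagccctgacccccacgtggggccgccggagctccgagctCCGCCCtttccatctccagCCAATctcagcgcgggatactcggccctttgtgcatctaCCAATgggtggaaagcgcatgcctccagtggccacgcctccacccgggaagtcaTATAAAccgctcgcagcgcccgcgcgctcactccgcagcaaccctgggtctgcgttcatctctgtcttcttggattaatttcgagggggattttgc

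Per kilobase of exon, the 10 genes covered a wide range of levels in FR Con liver. Trp53inp1, whose protein promotes p53-dependent death and autophagy, was at 14.1 CPM per kb and Ccng1, cyclin G1, at 12.3. Gadd45g was at 8.81, Bax, the pore former of the mitochondrial death pathway, at 4.02, and Mdm2 at 3.38 CPM per kb. Gadd45a (1.61), Cdkn1a (1.24) and Sesn2 (1.23) were lower, and Phlda3 (0.214) and Gadd45b (0.202) were lowest, with 1 to 7 and 3 to 6 counts per FR Con library. The mean for Gadd45g rested on 2 mice, described further on.

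Which of these genes differ between fixed and frozen tissue was tested first, with edgeR's quasi-likelihood test on counts scaled to the total, averaged over Con and PB. A gene passed where p, adjusted by Benjamini-Hochberg over all genes, was under 0.05, and it was called a DEG where the change was also 2-fold or more. In FFPE vs. FR, 5 members passed, all higher in FFPE (scaled to the authors' library size none passed as higher and Bax passed as lower, as given further on), where 70.3% of all genes passed. Of these 5, Sesn2 was a DEG, against 14.9% of all genes. The median log2 fold change of the 10 members was 0.52 and that of all genes 0.32. The same comparison was run on tissue frozen before fixation: in FR>FFPE vs. FR, 7 members were higher (65.4% of all genes passed), with none a DEG (6.52%). In FR>OH vs. FR, 4 members were higher (54.9%), again with no DEG (4.08%). These 3 comparisons share the FR libraries.

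Mdm2 gave the clearest difference. In Con mice its level was 15.5 to 18.5 CPM in FR (median 17.3), 24.2 to 33.9 in FR>OH (28.1), 29.3 to 36.0 in FR>FFPE (30.7) and 28.5 to 34.7 in FFPE (32.0). In PB mice it was 13.6 to 23.5 CPM in FR (median 19.0), 24.2 to 37.4 in FR>OH (33.7), 36.3 to 42.8 in FR>FFPE (38.8) and 27.3 to 42.2 in FFPE (39.0). Every embedded library was above every FR library of its treatment, and all 12 mice were higher in each embedded tissue than in FR. The share of all genes for which this holds is not given here, so it is only a description. The log2 fold change against FR was 0.75 for FR>OH (SE 0.07, adjusted p = 4.57e-12), 0.97 for FR>FFPE (SE 0.07, adjusted p = 1.36e-15) and 0.93 for FFPE (SE 0.07, adjusted p = 2e-15), and relative to the median of all genes 0.57, 0.63 and 0.61.

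**Figure D1:**
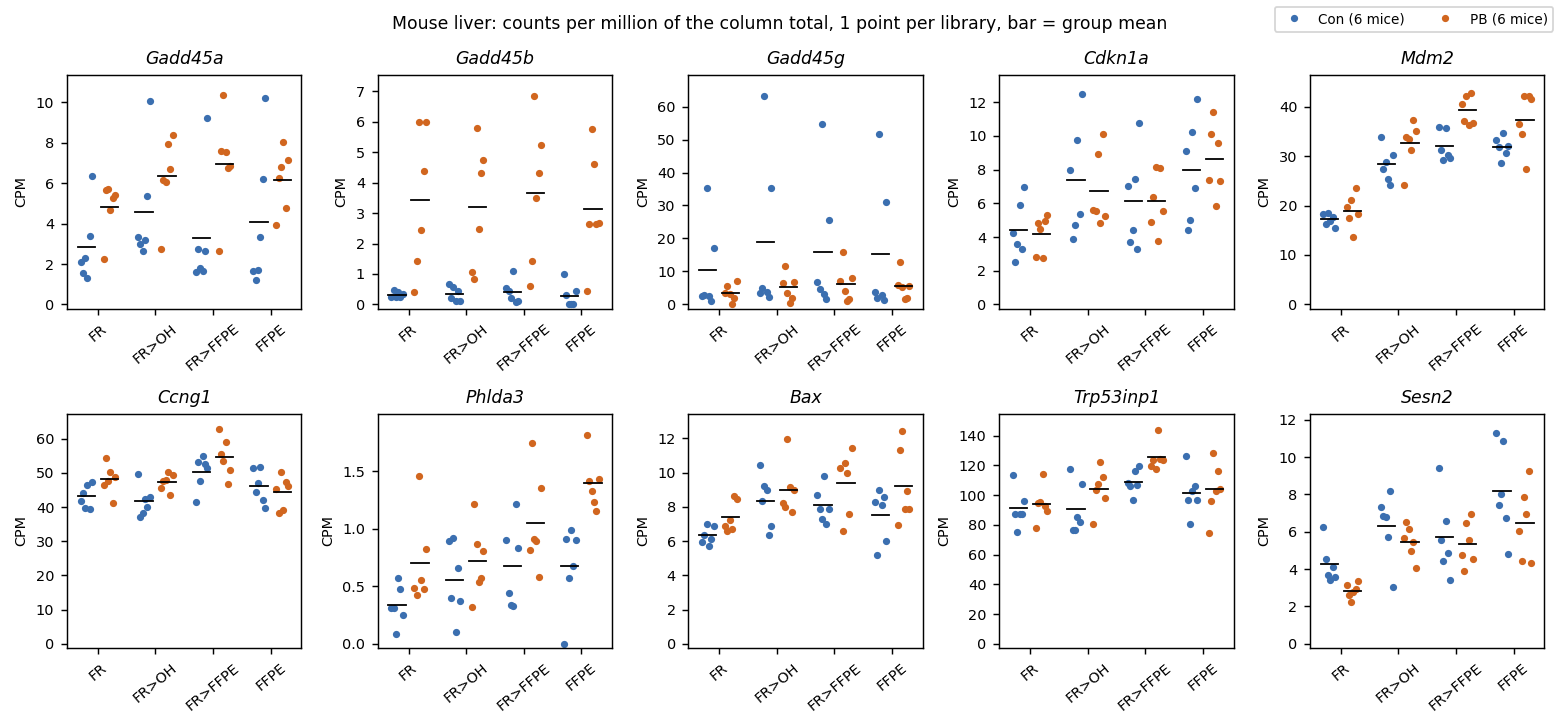
CPM of the column total for the 10 genes in mouse liver, 1 point per library, Con in blue and PB in orange (6 mice each), with the group mean as a bar. Mdm2 lies at 13.6 to 23.5 CPM in FR and at 24.2 to 42.8 CPM in embedded tissue, and in FR>OH all 6 PB mice lie above the Con mice for Gadd45b, against 5 of 6 in each other preservation.

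Sesn2, sestrin 2, which restrains mTORC1 and oxidative stress, was also higher in embedded tissue. Con livers held 3.44 to 6.26 CPM in FR (median 3.88) and 4.81 to 11.3 in FFPE (7.75), and PB livers 2.26 to 3.36 in FR (2.86) and 4.30 to 9.25 in FFPE (6.49). The PB groups did not overlap and the Con groups did, and all 12 mice were higher in FFPE than in FR. How many of all genes do the same is not given here. The log2 fold change against FR was 0.75 for FR>OH (SE 0.15, adjusted p = 4.27e-05), 0.65 for FR>FFPE (SE 0.15, adjusted p = 0.000255) and 1.06 for FFPE (SE 0.16, adjusted p = 6.02e-08). In the direct comparison of the formalin arms, FFPE vs. FR>FFPE, Sesn2 was higher by 0.41 (SE 0.15, adjusted p = 0.0383), in 11 of 12 mice. It did not pass without a filter (adjusted p = 0.0507), with only these groups fitted (adjusted p = 0.0735), or in Con and PB separately (adjusted p = 0.0895 and 0.435), and was at -0.15 with the authors' library size (adjusted p = 0.332).

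Cdkn1a encodes p21, the inhibitor of cyclin-dependent kinases through which p53 halts the cell cycle. Its range in Con livers was 2.53 to 6.94 CPM in FR (median 3.90) and 4.41 to 12.2 in FFPE (8.01), and in PB livers 2.76 to 5.32 (4.64) and 5.86 to 11.4 (8.49). The Con groups overlapped and the PB groups did not, while within each of the 12 mice FFPE was above FR, by a median ratio of 2.01. Here too the share of all genes that do the same is not given. The log2 fold change against FR was 0.71 for FR>OH (SE 0.20, adjusted p = 0.00281), 0.51 for FR>FFPE (SE 0.20, adjusted p = 0.0272) and 0.95 for FFPE (SE 0.21, adjusted p = 8.23e-05).

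Phlda3, a p53-induced inhibitor of AKT at the membrane, rested on few counts, 1 to 20 in FR and 0 to 12 in FFPE. It was at 0.0852 to 0.573 CPM in FR Con (median 0.310) and 0 to 0.986 in FFPE Con (0.787), and at 0.423 to 1.46 in FR PB (0.518) and 1.16 to 1.81 in FFPE PB (1.37). Both pairs of groups overlapped, and the log2 fold change of 0.98 for FFPE (SE 0.30, adjusted p = 0.00434) and 0.77 for FR>FFPE (SE 0.29, adjusted p = 0.0176) stood beside 0.35 for FR>OH, which did not pass (SE 0.30, adjusted p = 0.322). Bax passed in all 3 with smaller values, 0.34 for FR>OH (SE 0.10, adjusted p = 0.00349), 0.34 for FR>FFPE (SE 0.10, adjusted p = 0.00266) and 0.28 for FFPE (SE 0.10, adjusted p = 0.0175), which relative to the median of all genes were 0.16, 0.01 and -0.05.

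Ccng1 differed from Mdm2 and Cdkn1a. Con livers held 39.5 to 47.3 CPM in FR (median 43.0) and 39.7 to 51.9 in FFPE (45.7), and the groups overlapped. Its log2 fold change was -0.01 in FFPE (SE 0.06, adjusted p = 0.888), -0.04 in FR>OH (SE 0.06, adjusted p = 0.622) and 0.20 in FR>FFPE (SE 0.06, adjusted p = 0.00151), which relative to the median of all genes were -0.33, -0.22 and -0.13. In FFPE vs. FR>FFPE it fell by 0.21 (SE 0.06, adjusted p = 0.00365). Ccng1 and Sesn2 were the 2 members that passed in FFPE vs. FR>FFPE, 1 in each direction, where 29.2% of all genes passed and 0.531% were DEGs. Trp53inp1 was higher in FR>FFPE (0.34, SE 0.08, adjusted p = 0.000264) and did not pass in FFPE (0.15, adjusted p = 0.0886) or FR>OH (0.07, adjusted p = 0.469).

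The 3 Gadd45 genes did not pass in any of the 4 preservation comparisons without the mouse as a term. In FFPE vs. FR the log2 fold change was 0.45 for Gadd45a (SE 0.30), -0.10 for Gadd45b (SE 0.54) and 0.60 for Gadd45g (SE 0.66). With the mouse as a block, which the shared livers allow, 8 members passed in FFPE vs. FR, with Gadd45a (0.41, adjusted p = 0.0047), Gadd45g (0.57, adjusted p = 0.000115) and Trp53inp1 (0.15, adjusted p = 0.00405) added, 9 in FR>FFPE vs. FR, 6 in FR>OH vs. FR and 4 in FFPE vs. FR>FFPE, where Cdkn1a was higher by 0.45 (adjusted p = 7.31e-05) and Trp53inp1 fell by 0.20 (adjusted p = 0.000556). Of all 13370 genes tested, 10224, 9868, 8705 and 5826 passed in these 4 blocked comparisons, in the same order. Gadd45b was the one member that passed in none of the blocked preservation tests.

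These directions depend on what a library is scaled to, since the median of all genes shifted by 0.18 for FR>OH, 0.34 for FR>FFPE and 0.32 for FFPE. With TMM scaling, which takes off most of this shift, FFPE vs. FR gave 4 higher members (Cdkn1a 0.66, Mdm2 0.65, Phlda3 0.70, Sesn2 0.78) and 1 lower (Ccng1 -0.29, adjusted p = 6.99e-06), and 52.1% of the genes that passed were higher, against 75.4% with totals. FR>FFPE vs. FR then had 2 higher members (Mdm2 0.66, Sesn2 0.34), and FR>OH vs. FR 3 higher and 1 lower. Scaled to the authors' library size, of which genes are 21.4% to 27.5% in FFPE and 46.6% to 51.8% in FR, FFPE vs. FR had no higher member and 3 lower (Ccng1 -0.96, Bax -0.68, Trp53inp1 -0.80), with 8.49% of passing genes higher and a median over all genes of -0.63. Mdm2 remained higher under that size in FR>FFPE (0.59) and FR>OH (0.42). By the number after the letter L in the labels, whose meaning is not stated, all FFPE Con libraries are 1 and all FR Con libraries are 2. With that number as a term, Mdm2 (1.16, adjusted p = 3.98e-08) and Sesn2 (1.13, adjusted p = 0.00628) passed in FFPE vs. FR and the other 3 did not. Tested in Con and in PB mice separately, Cdkn1a, Mdm2 and Sesn2 passed in both.

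**Figure D2:**
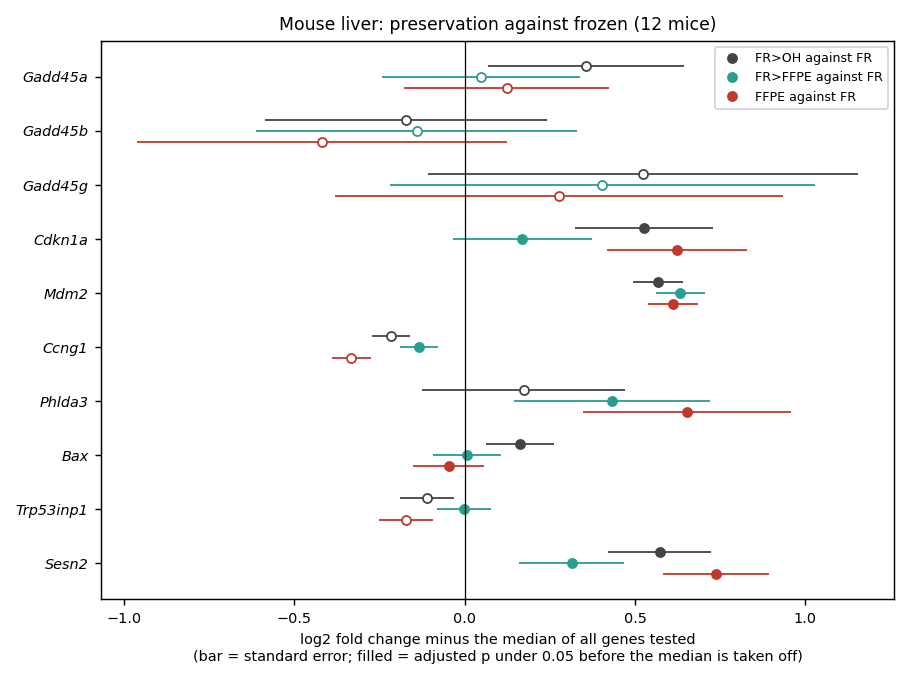
Log2 fold change of each gene against FR in 12 mice, less the median of all 13370 genes tested (horizontal axis), with the standard error as a bar and filled points where the adjusted p is under 0.05 before the median is taken off. Mdm2 lies at 0.57 to 0.63 in all 3 embedded tissues, while Ccng1 lies at -0.33 to -0.13.

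The effect of PB was then tested within each preservation, 4 readings of the same 12 livers. Gadd45b was the 1 member that passed in each, as a DEG and higher in PB, while over all genes 8.45% passed and 2.0% were DEGs for FR, 6.63% and 1.92% for FFPE, 7.23% and 1.87% for FR>FFPE, and 12.2% and 2.42% for FR>OH. The level of Gadd45b in FR was 0.235 to 0.460 CPM in Con mice (median 0.293) and 0.404 to 5.98 CPM in PB mice (median 3.42), where the 6 mice were at 0.404 (18B), 1.44 (18D), 2.45 (20D), 4.39 (75C), 5.98 (20B) and 5.98 (80B). In FFPE, Con was 0 to 0.995 (3 of 6 libraries without a count) and PB 0.453 to 5.77. In FR>FFPE, Con was 0.0936 to 1.10 and PB 0.609 to 6.85, and in FR>OH, Con was 0.103 to 0.666 and PB 0.847 to 5.81. The groups did not overlap in FR>OH, and in FR, FFPE and FR>FFPE 5 of 6 PB mice were above the highest Con mouse, the exception each time being mouse 18B. What share of all genes separates in this way is not given here.

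The log2 fold change of Gadd45b was 3.37 on FR tissue (SE 0.61, adjusted p = 0.000111), 3.17 on FR>OH (SE 0.65, adjusted p = 0.000498), 3.15 on FR>FFPE (SE 0.63, adjusted p = 0.00055) and 3.30 on FFPE (SE 0.75, adjusted p = 0.00278). An exact two-sided permutation test over the mice on log2(CPM + 0.5), added after seeing the data, gave p = 0.00216 for FR>OH, which is the smallest p that 6 against 6 mice allow, p = 0.00433 for FR>FFPE and for FFPE, and p = 0.00649 for FR. On that scale, which understates a change of so low a gene, PB minus Con was 1.94 for FR>OH, 2.01 for FR>FFPE, 2.12 for FFPE and 1.97 for FR.

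The L number of the labels is split unevenly between Con and PB. With it as a term in the fit, the log2 fold change of Gadd45b in FR was 1.47 (adjusted p = 0.489) and the call was lost, while it was 3.41 in FFPE (adjusted p = 0.00215) and 3.79 in FR>OH (adjusted p = 0.00433). The 2 PB mice that share L number 2 with the FR Con mice are 18B and 18D, which were the 2 lowest PB mice for Gadd45b in all 4 preservations. In FR, the part of the mouse and the part of the L number cannot be told apart. Within one L number, the exact permutation test gave a difference of 0.70 in FR (2 PB against 6 Con, p = 0.107, smallest possible 0.0357), 2.11 in FFPE (4 against 6, p = 0.00952) and 2.16 in FR>OH (6 against 3, p = 0.0238). In FR>FFPE all Con libraries have L number 3 and all PB libraries 4, so there treatment and L number cannot be told apart.

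**Figure D3:**
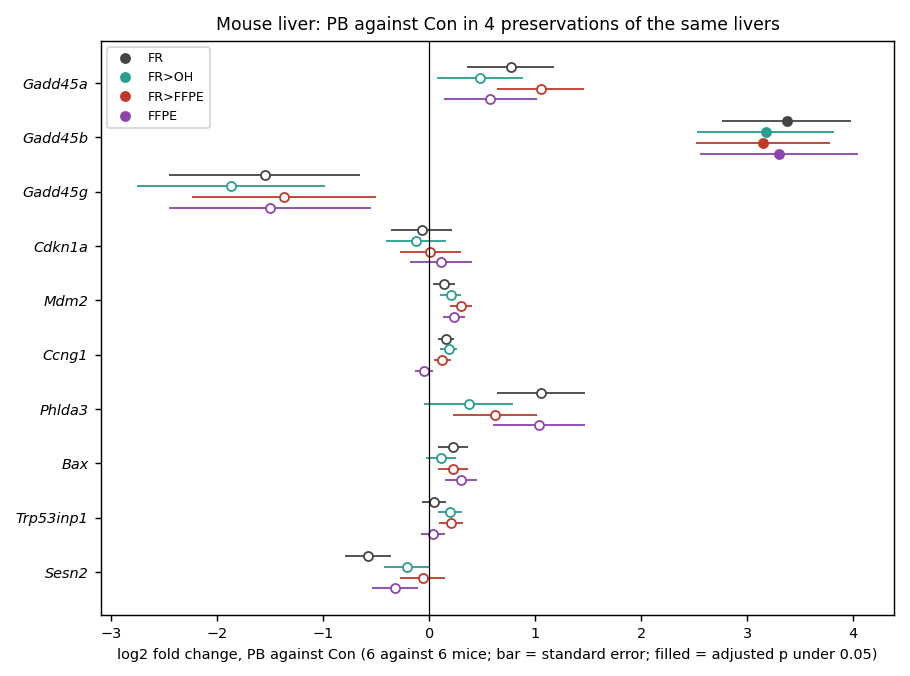
Log2 fold change of PB against Con (horizontal axis, 6 against 6 mice) for each gene in 4 preservations of the same livers, with the standard error as a bar and filled points where the adjusted p is under 0.05. Gadd45b lies at 3.15 to 3.37 in all 4 (at 1.47 in FR with the L number as a term), and no other gene is filled.

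The other 9 members did not pass for PB in any preservation. For Gadd45a the log2 fold change was 0.48 to 1.05 over the preservations, with SE 0.40 to 0.44, and for Gadd45g -1.87 to -1.37 with SE 0.87 to 0.95. Cdkn1a was between -0.12 and 0.11, and Mdm2 between 0.14 and 0.30, the last in FR>FFPE with adjusted p = 0.0589. In 3 cases the groups did not overlap although the test was not passed. The share of all genes whose groups do not overlap is not given here, so these cases are only a description. Mdm2 in FR>FFPE was 36.3 to 42.8 CPM in PB against 29.3 to 36.0 in Con, a preservation in which treatment and L number cannot be told apart. Groups without overlap fix the exact permutation test over 6 against 6 mice at its smallest p, 0.00216, so that test adds nothing here. Sesn2 in FR was 2.26 to 3.36 CPM in PB against 3.44 to 6.26 in Con (-0.58, SE 0.22, adjusted p = 0.0948), a difference that passed when only the FR libraries were fitted (adjusted p = 0.0424), and Phlda3 in FFPE was 1.16 to 1.81 CPM in PB against 0 to 0.986 in Con (1.04, SE 0.43, adjusted p = 0.156).

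The difference in PB response between each preservation and FR was tested as an interaction term. No member and no other gene passed (0.0% for FFPE, 0.0% for FR>FFPE, 0.0% for FR>OH), by edgeR or by DESeq2. At an unadjusted p under 0.05 there were 463, 288 and 305 genes. The interaction of Gadd45b was -0.07, -0.22 and -0.20 on the log2 scale, with SE 1.14, 0.92 and 0.96. With the mouse as a block, 1, 0 and 37 genes passed, none of them a member.

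Gadd45g varied widely between mice of one group. In FR Con it was at 35.4 CPM in mouse 8A and 17.1 in mouse 90C, and at 1.18 to 2.99 in the other 4. In FFPE Con the same 2 mice were at 51.7 and 31.0 CPM and the other 4 at 1.35 to 3.65. They were also highest in FR>FFPE (54.6 and 25.6) and in FR>OH (63.2 and 35.3), and in the PB mice Gadd45g ran from 0.158 to 15.8 CPM over all preservations, lowest in mouse 20D in each. The same 2 Con mice were thus the highest in all 4 preservations.

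The agreement of mice between FR and each embedded tissue was measured for all 10 genes and 3 pairs, 30 relations, with log2(CPM + 0.5) centred within Con and PB, n = 12 mice, and a permutation test adjusted over the 30. By Pearson's r, 11 relations passed. The share of all genes that would pass is not given here. Over 7953 genes, deviations from the group mean in libraries of the same mouse correlated at a median of 0.701. That value is taken across genes and not across mice for a single gene, so it does not give this share. Whether the agreement was particular to the members was not tested. For Gadd45g all 3 passed, with r = 0.92 for FFPE (rho = 0.881, permutation adjusted p = 0.00352 and 0.0109), r = 0.951 for FR>FFPE (rho = 0.923) and r = 0.976 for FR>OH (rho = 0.986), and without the 2 mice farthest from the median r was 0.92, 0.923 and 0.959. For Cdkn1a all 3 passed (r = 0.826, 0.859 and 0.788, and 0.685, 0.774 and 0.612 without the 2 farthest mice), and likewise for Gadd45a (r = 0.764, 0.877 and 0.896, and 0.56, 0.609 and 0.693). By rank, Gadd45a and Cdkn1a in FFPE missed the threshold (rho = 0.72, permutation adjusted p = 0.0625, and rho = 0.734, permutation adjusted p = 0.0508). Gadd45b passed in FR>FFPE (r = 0.892, rho = 0.79) and Trp53inp1 in FR>OH (r = 0.906, rho = 0.881). None of the 15 relations of Mdm2, Ccng1, Phlda3, Bax and Sesn2 passed, and for Ccng1 in FFPE r was -0.401. The mice spread less in several of these genes, for example 15.5 to 18.5 CPM for Mdm2 in FR Con, and Phlda3 had few counts. How far this range set r was not tested.

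The genes most like each member in their log2 CPM over the 48 libraries, which are 4 per mouse and share treatment and preservation, were found by Pearson's r and are given as a description. For Gadd45b they were Akr1b7 (0.906), an aldo-keto reductase, Cdc20 (0.886), an activator of the anaphase-promoting complex, and Por (0.882), the reductase that supplies cytochrome P450 enzymes with electrons. For Gadd45g they were Foxq1 (0.894), Phlda1 (0.816) and Vmp1 (0.804), and for Cdkn1a Ppard (0.804), Bcl3 (0.799) and Syvn1 (0.784). For Mdm2 they were the pseudogene Mug-ps1 (0.928), Rnf144b (0.927) and Fnbp1 (0.913), and for Sesn2 Trim25 (0.854), Tbx3 (0.835) and Mef2d (0.83). The leading gene was Etfrf1 for Ccng1 (0.765), Rdx for Trp53inp1 (0.791), Rapgef2 for Gadd45a (0.713), Chd1l for Phlda3 (0.68) and Nr1i2 for Bax (0.647).

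Around the members, 26 other p53 targets were tested in mouse liver. In FFPE vs. FR 18 were higher and 1, Fas, lower, where 70.3% of all genes passed, with a median log2 fold change of 0.51 against 0.32 for all genes. There were 6 DEGs, against 14.9% of all genes, led by Bbc3, the death promoter PUMA (2.05), Pidd1 (1.61), Gdf15, a stress cytokine (1.55), Tnfrsf10b (1.46) and Gtse1 (1.28). In FR>FFPE vs. FR 22 were higher and none lower (65.4% of all genes passed, median 0.53 against 0.34), with Bbc3 (1.47) and Gdf15 (1.15) largest, and in FR>OH vs. FR 14 were higher and none lower (54.9% of all genes passed, median 0.33 against 0.18), with Bbc3 (1.78) and Gdf15 (1.14) as the DEGs. For PB, Gdf15 was a DEG in all 4 preservations (2.30 for FR, 2.10 for FR>OH, 2.47 for FR>FFPE and 2.33 for FFPE), and Gtse1 in FR (1.503), while 1 further target in FR, 1 in FFPE and 2 in FR>OH were lower without reaching a fold change of 2. Over the 4 preservations, 6.63% to 12.2% of all genes passed for PB and 1.87% to 2.42% were DEGs.

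Of 11 genes for p53, its regulators and the damage kinases, 8 were higher and 1 lower in FFPE vs. FR (median 0.37), 9 and 0 in FR>FFPE (median 0.38, with Chek1 at 1.01 as a DEG) and 6 and 0 in FR>OH (median 0.24). Beside these and the next list, 70.3%, 65.4% and 54.9% of all genes passed, with medians of 0.32, 0.34 and 0.18. For PB, Chek1, a checkpoint kinase, was a DEG in FR (1.61), FR>FFPE (1.32) and FR>OH (1.91) and not in FFPE. Of 13 partners of the Gadd45 proteins and kinases of their pathway, 8 were higher and 2 lower in FFPE vs. FR (median 0.39), with Map2k7 (1.17) and Pcna (-1.04) as DEGs, 8 and 2 in FR>FFPE (median 0.44) and 6 and 2 in FR>OH (median 0.17). For PB, Cdk1, the mitotic kinase that Gadd45 proteins bind, was a DEG in all 4 preservations (2.18 for FR, 2.68 for FR>OH, 2.38 for FR>FFPE and 2.29 for FFPE), Ccnb1, its cyclin, in FR (3.33), FR>FFPE (3.67) and FR>OH (3.84), and Pcna in FR>OH (1.00). Of all genes, 1.87% to 2.42% were DEGs for PB. The genes of these lists and the other p53 targets were tested without the L number as a term only. In FR>FFPE, treatment and L number cannot be told apart.

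In rat liver 8 members were tested, with TMM scaling, against a panel of 2281 genes. Gadd45g had 0 to 6 counts in the rat libraries and was not tested, and Trp53inp1 was listed at 0. In FFPE vs. FR 5 members were higher and 2 lower, with 79.7% of the panel passing. Gadd45b was at 2.58 to 4.28 CPM in FR (median 2.94), 5.69 to 9.02 in FR>FFPE (6.47) and 10.0 to 47.96 in FFPE (38.9), none overlapping. The lowest FFPE library was only just above the highest FR>FFPE library. Counts per library were few, 5 to 9 in FR, 15 to 20 in FR>FFPE and 12 to 33 in FFPE. How many panel genes show no overlap is not given here. The log2 fold change of Gadd45b was 3.36 in FFPE (SE 0.33, adjusted p = 1.46e-09) and 1.08 in FR>FFPE (SE 0.33, adjusted p = 0.00515), and 2.28 between FFPE and FR>FFPE (SE 0.30, adjusted p = 7.79e-07). Gadd45a was at 14.7 to 35.7 CPM in FR and 58.3 to 108.5 in FFPE (1.77, SE 0.23, adjusted p = 1.07e-07), with FR>FFPE at 24.9 to 41.6 and not passing. Sesn2 went both ways, 5.86 to 14.8 CPM in FR, 4.58 to 9.90 in FR>FFPE (6.71) and 19.1 to 40.4 in FFPE (35.4), with a log2 fold change of 1.43 for FFPE (SE 0.26, adjusted p = 1.94e-05) and -0.74 for FR>FFPE (SE 0.26, adjusted p = 0.0135).

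Mdm2 in rat liver was opposite to mouse liver under this scaling: 105.9 to 148.3 CPM in FR, 38.0 to 84.9 in FR>FFPE and 27.8 to 70.0 in FFPE, with a log2 fold change of -1.19 for FR>FFPE (SE 0.20, adjusted p = 1.66e-05), and it was -1.25 for FFPE (SE 0.22, adjusted p = 8.82e-06). The species, the assay and the part of the transcript that is counted differ, and the difference between rat and mouse was not tested. Ccng1 also fell, by 0.40 in FR>FFPE (SE 0.17, adjusted p = 0.0365) and by 1.34 in FFPE (SE 0.19, adjusted p = 3.94e-07). Cdkn1a was higher in FFPE by 0.92 (SE 0.23, adjusted p = 0.000712). Phlda3 had 0 to 3 counts per FR library and 1 to 24 in the others, so its log2 fold change of 3.32 in FR>FFPE and 5.00 in FFPE depends on the counts near 0, while Bax did not pass. In all, 5 members passed in FR>FFPE vs. FR (2 higher, 3 lower, with 71.3% of the panel) and 6 in FFPE vs. FR>FFPE (5 higher, 1 lower, with 53.8%).

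The panel as a whole moved with the level of a gene. Over 4 classes of the panel of equal size, from lowest to highest mean level, the median log2 fold change of FFPE vs. FR was 4.27, 1.00, -0.28 and -1.24, and that of FR>FFPE vs. FR 2.44, 0.56, -0.09 and -0.57. Phlda3 and Bax lie in the lowest of the 4 level classes, Gadd45b, Cdkn1a and Sesn2 in the next, and Gadd45a, Mdm2 and Ccng1 in the third. Beside those medians, Gadd45b at 3.36, Gadd45a at 1.77, Sesn2 at 1.43 and Phlda3 at 5.00 in FFPE vs. FR are above the median of their class. Cdkn1a at 0.92, Mdm2 at -1.25, Ccng1 at -1.34 and Bax at -0.39 are below it, with no test of these differences. Marker sums of other cells moved too, in CPM of the column total: the bile duct markers (2 of 4 with counts) from 2.631 to 5.57 in FR to 4.173 to 69.23 in FR>FFPE and 22.49 to 71.7 in FFPE, and the lymphocyte markers (1 of 4) from 0 to 0.2932 in FR to 0.9274 to 6.754 and 20.24 to 114.7. Hepatocyte markers were at 94800 to 156800 in FFPE, and the part of these shifts in the members' values was not tested. Scaled to totals, where the panel's median in FFPE vs. FR was 1.97 instead of 0.35, the 5 higher members stayed higher (Gadd45b 5.06, Gadd45a 3.47, Sesn2 3.07, Cdkn1a 2.57, Phlda3 6.50) and Bax joined them (1.10), whereas Mdm2 (0.33, adjusted p = 0.132) and Ccng1 (0.27, adjusted p = 0.185) changed sign and did not pass. In FR>FFPE vs. FR, scaled to totals, Gadd45b (1.80), Phlda3 (3.99), Gadd45a (1.09) and Cdkn1a (1.08) were higher and Mdm2 (-0.46) lower, while Ccng1 and Sesn2 did not pass.

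**Figure D4:**
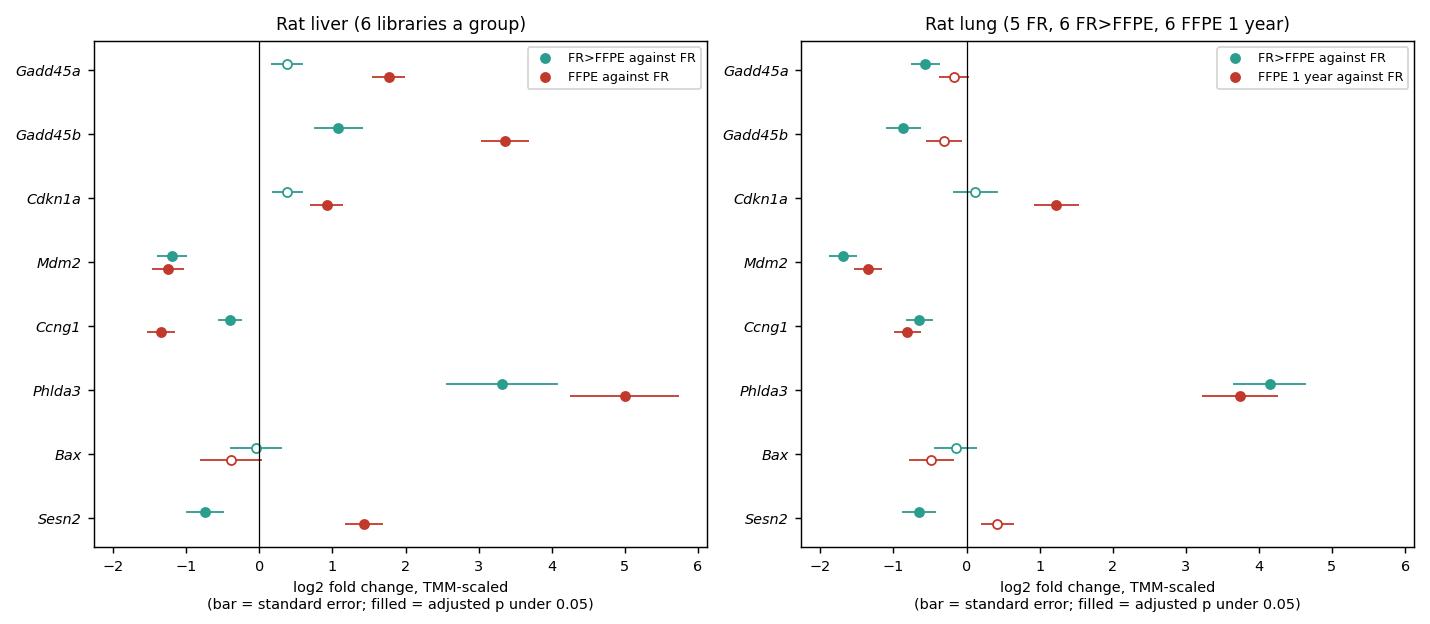
Log2 fold change against FR with TMM scaling (horizontal axis) of the 8 members tested in rat liver (left, 6 libraries a group) and rat lung (right, 5 FR and 6 of each other group), with the standard error as a bar and filled points where the adjusted p is under 0.05. Gadd45b is at 3.36 in rat liver FFPE and at -0.86 in rat lung FR>FFPE, and Mdm2 is below 0 in all 4 comparisons (scaled to totals it is at 0.33 in rat liver FFPE).

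In rat lung, 6 members passed in FR>FFPE vs. FR, 1 higher and 5 lower (77.4% of the 2322 panel genes passed). Mdm2 was at 671.2 to 955.0 CPM in FR, 186.7 to 321.8 in FR>FFPE and 223.2 to 498.8 in tissue kept in formalin for 1 year. On this TMM scale neither fixed group overlapped FR. In CPM of the column total FR>FFPE did not overlap FR, but the 1 year tissue did, at 277.7 to 547.5 against 489.2 to 670.1. How much of the panel shows no overlap is not given here. Mdm2 fell by 1.69 (SE 0.19, adjusted p = 7.63e-08) and by 1.35 (SE 0.19, adjusted p = 1.76e-06) on the log2 scale, and remained lower when scaled to totals (-0.98 and -0.60). Gadd45b was at 91.7 to 195.4 CPM in FR and 60.2 to 127.3 in FR>FFPE, overlapping, and fell by 0.86 (SE 0.24, adjusted p = 0.00305), while Gadd45a fell by 0.56 (SE 0.20, adjusted p = 0.0142), Ccng1 by 0.64 (SE 0.18, adjusted p = 0.003) and Sesn2 by 0.65 (SE 0.23, adjusted p = 0.0162). None of these 4 passed when scaled to totals, where 3 members passed (Mdm2 -0.98, Phlda3 4.82 and Cdkn1a 0.84).

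Tissue kept in formalin for 1 year had 4 members that passed against FR (75.5% of the panel), 2 higher and 2 lower. Cdkn1a was at 21.9 to 45.8 CPM in FR, 22.3 to 50.4 in FR>FFPE and up to 152.9 after 1 year (median 62.4). On this TMM scale every 1 year library was above both other groups, the lowest only just above the highest FR>FFPE library. In CPM of the column total the 1 year tissue did not overlap FR. It did overlap FR>FFPE there, with 4 of 6 libraries above the highest of that group. The share of the panel without overlap is not given here. The log2 fold change of Cdkn1a was 1.23 against FR (SE 0.31, adjusted p = 0.00131) and 1.11 against FR>FFPE (SE 0.30, adjusted p = 0.0078). Sesn2 was the other member that passed between the fixed groups (1.07, SE 0.23, adjusted p = 0.00176), where 31.0% of the panel passed. Phlda3 was at 0 to 2.74 CPM in FR and 3.56 to 42.3 after 1 year (3.74, SE 0.52, adjusted p = 1.62e-06), and Ccng1 fell by 0.81 (SE 0.18, adjusted p = 0.000455), which did not pass when scaled to totals, where Gadd45a (0.59) and Sesn2 (1.19) passed as higher. The 4 classes of the lung panel moved as in liver, with medians of 3.34, 1.07, -0.20 and -0.76 in FR>FFPE vs. FR and 3.66, 0.93, -0.29 and -0.75 in the 1 year tissue, and Mdm2 and Ccng1 lie in the highest class. Phlda3, with 0 to 5 counts per FR library, lies in the lowest class, and its 3.74 after 1 year is close to the 3.66 of that class. Cdkn1a lies in the next, at 1.23 beside 0.93. None of these differences was tested. The lymphocyte marker with counts was at 8.443 to 15.96 CPM in FR lung, 30.13 to 80.59 in FR>FFPE and 41.8 to 133.6 after 1 year, and its part was not tested.

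Of the 13 other p53 targets tested on the rat panel, 10 were higher and 2 lower in rat liver FFPE vs. FR (79.7% of the panel passed, median 1.68 against 0.35 for the panel), with Tigar (4.91), Btg2 (4.14) and Sesn1 (3.25) largest, and 8 and 2 in FR>FFPE vs. FR (71.3% of the panel, 1.14 against 0.37). In rat lung the counts were 8 and 2 in FR>FFPE vs. FR (77.4% of the panel, 0.63 against 0.35) and 6 and 3 in the 1 year tissue (75.5%, 0.24 against 0.24).

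AML12 cells were given formalin for 10 min to ask what it does to living cells. At 0.1% formalin 2 of the 9 members tested passed, both lower, and 19.3% of the 1570 panel genes passed. Phlda3 was at 1052, 1182 and 1216 CPM with vehicle and at 593.4, 640.2 and 653.9 at 0.1%, without overlap, and fell by 0.87 (SE 0.14, adjusted p = 0.00122). At the doses between, it was at 973.3, 1026 and 1097 CPM (0.006%) and at 713.3, 941.6 and 1025 (0.03%). Cdkn1a was at 168.3, 175.9 and 199.3 CPM with vehicle and at 83.1, 99.7 and 123.4 at 0.1%, again without overlap, and fell by 0.83 (SE 0.18, adjusted p = 0.00508). At 0.006% it was at 158.4, 193.2 and 202.9 CPM, which overlaps vehicle, and at 0.03% at 126.5, 149.6 and 178.8. For AML12 the share of panel genes without overlap is not given here.

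Ccng1 was at 1449, 1632 and 1749 CPM with vehicle and at 1850, 2088 and 2145 at 0.1%. These groups did not overlap, but the log2 fold change of 0.33 did not pass (SE 0.14, adjusted p = 0.0954), and it passed when scaled to totals (0.54, adjusted p = 0.0125), where the median of the panel was 0.20. The Gadd45 genes did not pass at 0.1%, at -0.27 for Gadd45a (SE 0.22), -0.15 for Gadd45b (SE 0.25) and 0.01 for Gadd45g (SE 0.21), nor did Mdm2 (-0.41, SE 0.22, adjusted p = 0.2), which passed without replicate 93 at 0.1% (adjusted p = 0.0284). Sesn2 was at 1.30 to 11.8 CPM over these 2 groups. At 0.03% (0.0% of the panel) and 0.006% (0.0%) no gene passed by edgeR or DESeq2, with 62 and 28 genes at an unadjusted p under 0.05, and among the members Phlda3 was at -0.36 (SE 0.14) at 0.03%.

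**Figure D5:**
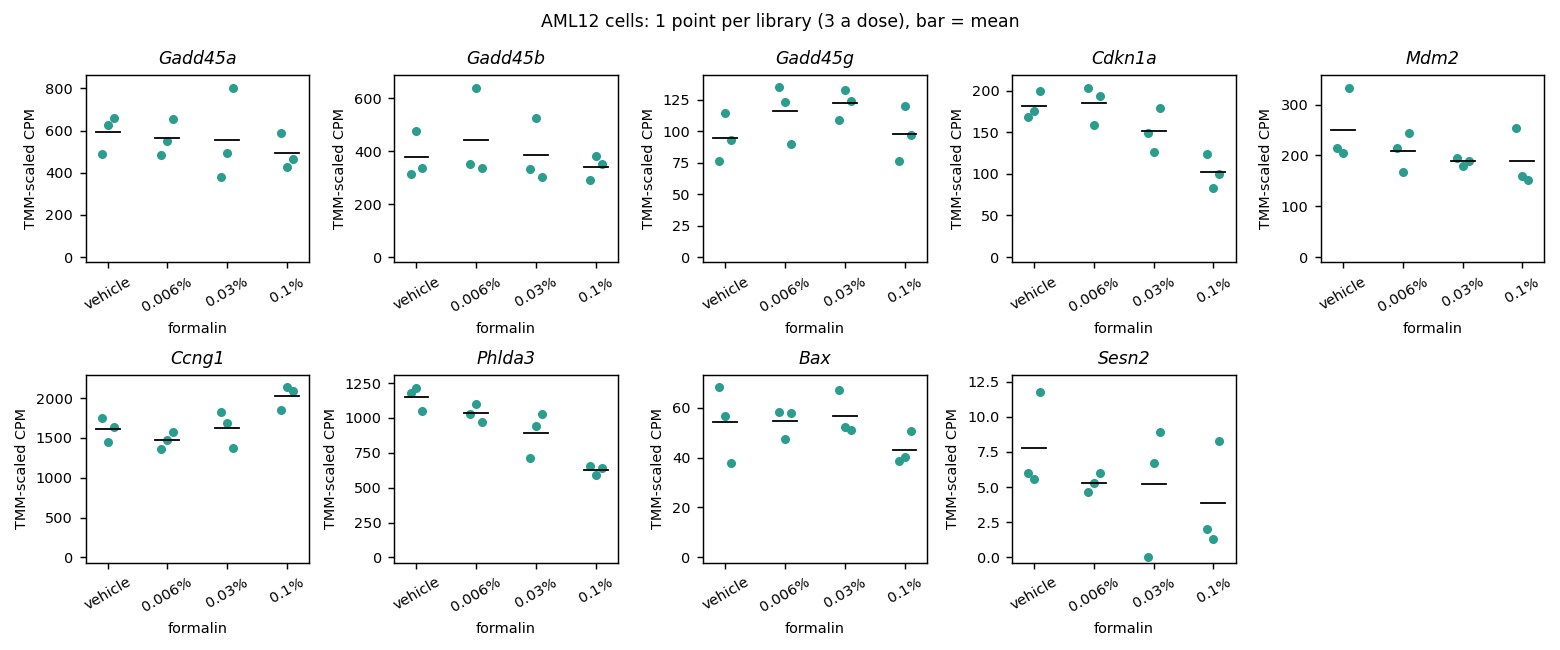
TMM-scaled CPM of 9 members in AML12 cells by formalin dose (horizontal axis), 1 point per library (3 a dose), with the mean as a bar; Trp53inp1 is listed at 0. At 0.1% the Phlda3 libraries lie at 593.4 to 653.9 and the vehicle libraries at 1052 to 1216.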

How the data were processed

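Per the study's methods and the submitters' processing notes, the authors aligned paired-end reads of ribosomal RNA-depleted mouse liver libraries to GRCm38 (mm10) with STAR 2.5.3a and made estimated counts per RefSeq transcript by expectation maximization in Partek Flow, deposited per gene, of which 92.0% of values are whole. For rat and AML12 the authors deposited estimated counts per gene of a TempO-Seq panel, and the steps between reads and counts are not given in the sources used here. The log2 values that the authors deposited for mouse liver are log2 of CPM of their library size, and served here only to recover that size; their log2 tables of the panel were not used. Library preparation kept strand, but whether counting used it is not stated. No column of per-sample values was left unmapped (0).

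Samples were grouped by the GEO labels and the genes were chosen by symbol. The 10 members and the lists around them were chosen with earlier results of these data known, and named genes are the members, the leading DEGs of each list and the 3 most alike genes of each member. Estimated counts were rounded, genes with a geometric mean above 1 count (offset 1e-04) were kept (13370 of 24543), and edgeR 4.0.16 in R 4.3.3 fitted 8 group means to 48 libraries with totals of kept genes as library sizes. The panel tables were fitted each on its own with TMM scaling and edgeR's filter. CPM are of the column total in mouse liver and TMM-scaled in the panel. Other fits used TMM, totals, the authors' library size, DESeq2 1.42.0, no filter, only the groups compared, the L number, the mouse as a block, Con and PB apart, and single libraries left out. Exact permutation tests used scipy 1.17.1 in Python 3.11.15. The fits were tested on simulated data.

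The mouse number in the labels marks the animal whose liver was divided, and the pairing was checked over 7953 genes of at least 10 CPM: deviations from the group mean correlated above 0.1 in 72 of 72 same-mouse pairs (median 0.701, and -0.125 between different mice). No 2 replicates agreed within sampling noise, chi-square divided by its degrees of freedom being at least 6.65 in mouse liver, 2.56 in rat liver, 6.23 in rat lung and 4.78 in AML12. Counts limit the precision of genes near 1 CPM. Promoters came from RefSeq on GRCm38.p6, and exon lengths from GENCODE M21 on GRCm38.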

Additional observations from a re-analysis of the deposited data

Results flagged for a closer look

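Single libraries that stood far from their group were looked for in 134 sets of 4 to 6 libraries, gene by gene, by Dixon's test at 95%, which chance alone passes in about 1 of 20 sets. It marked 15. In mouse liver, Gadd45a was lowest in mouse 18B in FR PB, at 2.262 CPM against a median of 5.336. Gadd45a was highest in mouse 90C in FR>FFPE Con, at 9.228 CPM against 2.218, and in the same mouse in FR>OH Con, at 10.04 CPM against 3.27. Gadd45g was highest in mouse 18D in FFPE PB, at 12.92 CPM against 5.44. Bax was highest in mouse 20B in FR>OH PB, at 11.96 CPM against 8.608, and Trp53inp1 in mouse 20D in FR>FFPE PB, at 143.8 CPM against 123.7.

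In rat liver, in CPM of the column total, Cdkn1a was highest in FFPE replicate 82, at 143.4 (20 counts, median 52.26), Ccng1 in FR replicate 68, at 70.04 (median 51.34), and Mdm2 was lowest in FR replicate 70, at 63.72 (median 80.22). The other marked rat liver values rest on 2 or 3 counts: Gadd45g in FFPE replicate 84 at 6.098 and in FR replicate 71 at 0.5318, and Phlda3 in FR replicate 72 at 0.8795. In rat lung, Mdm2 was lowest in FR>FFPE replicate 57, at 200.3 (median 327.8), and in FR replicate 50, at 489.2 (median 625.2), and Ccng1 was highest in FR replicate 53, at 315.8 (median 282.5).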

How the results depend on the processing

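Which members passed depended on scaling and on the use of the mouse. FFPE vs. FR had 5 members, and 3 with the authors' library size (all lower), 2 with the L number as a term, 8 with the mouse as a block and 3 in Con and PB separately. FR>FFPE vs. FR had 7, and 2 with TMM, with DESeq2 and with the authors' size (for the last 1 higher and 1 lower). It had 3 in Con and PB separately, and 9 with the block. FR>OH vs. FR had 4, all higher, and 2 separately and 6 with the block. It also had 4 with TMM and with DESeq2 (3 higher, 1 lower) and with the authors' size (2 higher, 2 lower). FFPE vs. FR>FFPE had 2, and 4 with the authors' size (all lower), 1 without a filter, 1 with only these groups, 4 with the block and 0 separately. For PB the 1 member became 0 in FR with the L number, 2 in FR with only these groups, 2 in FR>FFPE with the authors' size, with only these groups and without Con replicate 21C, and 3 in FR>OH with the authors' size. Rat lung FR>FFPE vs. FR had 6, and 3 with totals. The cause was not tested. Leaving out single libraries gave 2 to 3 members at 0.1% formalin in AML12 against 2 in the main test, and 2 for PB in FR>FFPE as given; in the other comparisons for which it was run, 7 members passed in FR>FFPE vs. FR, 2 in FFPE vs. FR>FFPE, 0 in the interaction, 0 at 0.03% and 0.006% formalin, and in rat lung 6 in FR>FFPE vs. FR and 4 after 1 year.

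Relative to the median of all genes, 3 values near 0 changed sign: Trp53inp1 in FR>FFPE vs. FR, to 0.02352 without a filter, 0.0107 with the block and 0.002416 without replicate 21C, Bax there, to -0.0005048 without replicate 21C, and Cdkn1a in rat liver FR>FFPE vs. FR, to -0.001381 with totals.

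Over all genes, the number passing moved by over 1.5 times to 5855 from 9399 in FFPE vs. FR and to 328 from 1130 for PB in FR with the L number, to 518 from 1631 for PB in FR>OH with it, to 505 from 886 for PB in FFPE with only these groups, to 4257 from 7342 in FR>OH vs. FR and to 1093 from 3904 in FFPE vs. FR>FFPE with Con and PB separately, and to 11038 in the latter with the authors' size. In AML12 at 0.1%, 303 genes became 186 without vehicle replicate 87, 200 without vehicle replicate 90, 136 without 0.1% replicate 95 and 135 without 0.1% replicate 96, and at 0.006% 1 gene passed without a filter.

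With the block, 1 and 37 genes passed for the interactions of PB with FFPE and with FR>OH, against 0. The block added 9 member calls over the 4 preservation comparisons, as counted above, and took none away. Over all genes the number passing also rose with it. It was 10224 from 9399 in FFPE vs. FR, 9868 from 8742 in FR>FFPE vs. FR, 8705 from 7342 in FR>OH vs. FR and 5826 from 3904 in FFPE vs. FR>FFPE. No paired analysis was possible because Con and PB are different mice for the PB comparisons, and because the labels of rat and AML12 libraries carry no number shared between groups. L numbers 1 to 3 and 4 to 5 share no group, so with this term no value could be estimated for comparisons across those sets (FR>FFPE vs. FR, FR>OH vs. FR, FFPE vs. FR>FFPE, PB in FR>FFPE and its interaction). The exact tests over mice and within an L number were chosen after seeing the data. Depth limits Gadd45b and Phlda3 most: Con libraries held 0 to 10 and 0 to 13 counts of them.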
